A study of Mus musculus with 30 samples.

Results

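The 33 genes described here carry cholesterol synthesis, its control by SREBP2, the movement of cholesterol inside the cell, and its export under the liver X receptors (LXR). They were picked by name from the 54532 genes of the deposited count table, through Ensembl identifiers, with earlier results of these data known. They comprise 21 targets of SREBP2, 5 LXR and efflux genes, and 7 others that control the pathway, branch from it or handle cholesterol in lysosomes and droplets. Of the 33 genes, 32 had enough reads to be tested. Tm7sf2, a sterol reductase, did not: 29 of 30 libraries lay below the filter level, and 1 library (WT 9 h replicate 1) stood at 18.4 CPM.

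The cells were mouse bone marrow cultured with GM-CSF, a growth factor that turns marrow precursors into a mixture of dendritic cells and macrophages. Nlrx1-deficient cells (KO) and wild-type cells (WT) were challenged with viable conidia, the spores of the mould Aspergillus fumigatus (strain AF29). RNA was taken before challenge (0 h) and after 3, 6, 9 and 12 h, with 3 libraries in each of the 10 groups. All groups share the same culture protocol. No culture kept over the same hours without conidia is analysed here, so a change with time cannot be told apart from a change of the culture alone. NLRX1 is a mitochondrial member of the NOD-like receptor family. The strain, age, number of animals behind the libraries and the deleted part of Nlrx1 are unknown here. Hence p-values measure the spread between these libraries, which may be technical.

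SREBP2 is a transcription factor made as a membrane protein of the endoplasmic reticulum. When the membrane is rich in sterol, INSIG proteins hold SREBP2 and its escort SCAP in place, and when sterol falls SREBP2 travels to the Golgi, is cut, and switches on the genes of cholesterol synthesis. LXR works the other way: its subtypes (Nr1h3 for LXR alpha, Nr1h2 for LXR beta) bind oxidized sterols and switch on export pumps such as Abca1 and Abcg1. In macrophages and dendritic cells, inflammatory signals are known to act on both arms.

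Total counts ran from 1722384 to 3509429 per library (median 2492886), so that a gene at a few CPM rests on few reads. Nlrx1 had 0 to 14 counts in the KO libraries and 13 to 46 in the WT libraries, with means of 2.49 ± 1.75 CPM in KO and 9.32 ± 2.93 CPM in WT (SD, n = 15 each) and a log2 difference of -1.87 (SE 0.28, adjusted p = 1.71e-05). Dendritic cell markers summed to between 2394 and 3460 CPM per library and macrophage markers to between 973 and 1462 CPM. B cell, T and NK cell, and mast cell and basophil markers summed to less than 8 CPM in every library, and Trac was at 0 in all. Neutrophil markers were present in every library and moved with time and genotype, as given beside the results. In such bulk RNA, fewer cells of a type and less RNA per cell cannot be told apart.

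Levels are given as CPM, the counts scaled to a common library size, and the values of a group are listed by replicate 1, 2 and 3. A change is the log2 change ± SE fitted by edgeR, later time over 0 h unless another pair is named, tested by the quasi-likelihood test, and it is said to pass where the p adjusted over all 12393 genes tested is under 0.05. Per kilobase of exon, Soat1 had the highest level of the 33 genes (57.7 CPM per kb), followed by Npc2 (44.2), Abcg1 (22.4), Abca1 (21.9) and Npc1 (19.2). The synthesis enzymes lay lower, between 14.6 CPM per kb for Mvd and 0.456 for Tm7sf2. Mvk and Nr1h3 were close to the limit of detection, with only 6 and 5 libraries above the filter level of 4.01 CPM. Cyp51, Fdft1, Ggps1, Npc1, Srebf1 and Mvd overlap a protein-coding gene on the opposite strand and Tm7sf2 and Fdps one on the same strand. Srebf2, Srebf1, Fdps, Nr1h3, Abcg1, Scap, Insig2, Hmgcs1, Idi1, Lss, Npc1 and Soat1 overlap genes of other annotated classes. Since it is unknown whether the counting used strand, their reads may be shared with those genes.

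After conidia, some genes of cholesterol synthesis rose at 6 and 9 h in both genotypes, and at 12 h none passed as higher than at 0 h. Of 8 mevalonate and 10 sterol arm genes tested, 1 and 3 rose at 6 h in KO cells and 2 and 5 in WT cells. At 9 h 2 and 5 rose in KO cells and 3 and 6 in WT cells. The export pump gene Abca1 ran the opposite way, lower at 6 and 9 h and higher at 12 h. Insig1, the sterol-sensing brake of SREBP2, rose with the synthesis genes but stayed up at 12 h. Little had moved at 3 h. In KO cells 2 genes rose at 3 h, where 1.03% of all genes tested rose. At 6 h 8 did (3.21%), at 9 h 11 (5.86%) and at 12 h 3 (8.13%). In WT cells 1 rose at 3 h (0.88%) and 11 at 6 h (3.29%), followed by 14 at 9 h (5.57%) and 3 at 12 h (9.64%). Fewer genes fell. At 3 h none of 32 did in KO or WT cells (0.186% and 0.137% of all genes tested). Abca1 alone fell at 6 h (2.7% in KO and 2.67% in WT) and at 9 h (5% in KO and 4.81% in WT). At 12 h 3 fell in KO (6.58%) and 2 in WT cells (8.47%). At 3 h no gene fell at an unadjusted p under 0.05 either, nor by DESeq2. The shares of the 32 genes that rose at 6 and 9 h were several times the share of all genes, and those at 12 h were close to it. With 1 library left out the WT count at 6 h was 5 to 8, with 5 to 7 without WT 0 h replicate 2 or 3 or WT 6 h replicate 2 or 3. Of the genes that rose at 6 h, 6 were shared by both genotypes (6 of 8 in KO and 6 of 11 in WT), and at 9 h 10 were (10 of 11 in KO and 10 of 14 in WT).

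**Figure D1:**
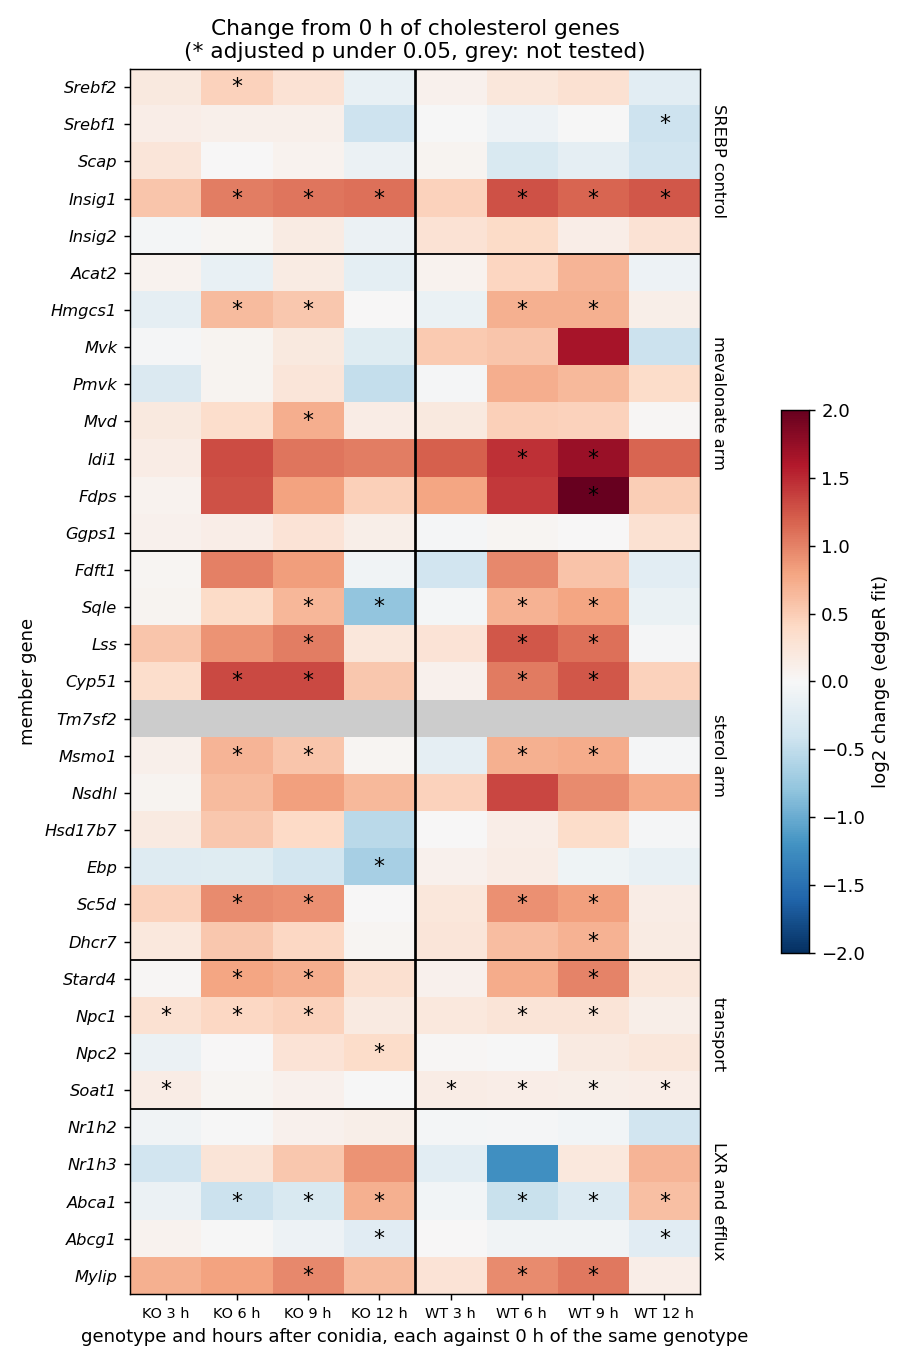
Fitted log2 change from 0 h of the same genotype for the 33 genes (rows, grouped by role) at 3, 6, 9 and 12 h in KO cells (left columns) and WT cells (right columns), with red for higher, blue for lower and an asterisk for an adjusted p under 0.05. Most synthesis genes turn red at 6 and 9 h in both genotypes, where 8 and 11 of the 32 tested genes rose in KO and 11 and 14 in WT, and Abca1 turns from blue to red.

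Set against each other, the 20 tested SREBP2 targets and the 5 LXR and efflux genes differed in the time course of their medians. Among the 20 SREBP2 targets 7 rose at 6 h (3.21% of all genes tested), 9 at 9 h (5.86%) and 1 at 12 h (8.13%) in KO cells. None did at 3 h (1.03%). In WT cells 8 rose at 6 h (3.29%), 11 at 9 h (5.57%) and 1 at 12 h (9.64%), again with none at 3 h (0.88%). Their median log2 change was 0.09, 0.63, 0.70 and 0.02 at 3, 6, 9 and 12 h in KO cells and 0.09, 0.72, 0.77 and 0.07 in WT cells, while the median of all genes tested stayed between -0.01 and 0.01. At 6 h, 18 of 20 targets had a positive log2 change in KO cells and 20 of 20 in WT cells, and at 9 h 19 of 20 did in each. Of all 12393 genes tested, 6343 in KO and 6371 in WT cells had a positive change at 6 h, and 6173 and 6402 at 9 h. Library by library, the median over the 20 targets was 0.57, 0.74 and 0.68 above the KO 0 h mean in the KO 6 h libraries. It was 0.57, 0.73 and 0.78 above the WT 0 h mean in the WT 6 h libraries, against -0.04 to 0.09 in the 0 h libraries. All 6 h and 9 h libraries lay above all 0 h and 3 h libraries of their genotype on this measure. Among the LXR and efflux genes, Abca1 fell at 6 and 9 h in both genotypes while Mylip passed as higher at 9 h in KO and at 6 and 9 h in WT, so the list did not move one way. Its median log2 change at 6, 9 and 12 h was -0.00, 0.09 and 0.64 in KO cells, against -0.07, -0.06 and 0.14 in WT cells. The KO value at 12 h rests on few genes and reads: leaving out 1 library moved it to between 0.08 and 0.67, with 0.08 without KO 12 h replicate 2, 0.43 without KO 0 h replicate 2 and 0.45 without KO 0 h replicate 3. With its own groups alone it was 0.39. The WT value ran from 0.02 without WT 0 h replicate 2 to 0.32 without WT 0 h replicate 1, and was 0.07 without WT 12 h replicate 1.

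**Figure D2:**
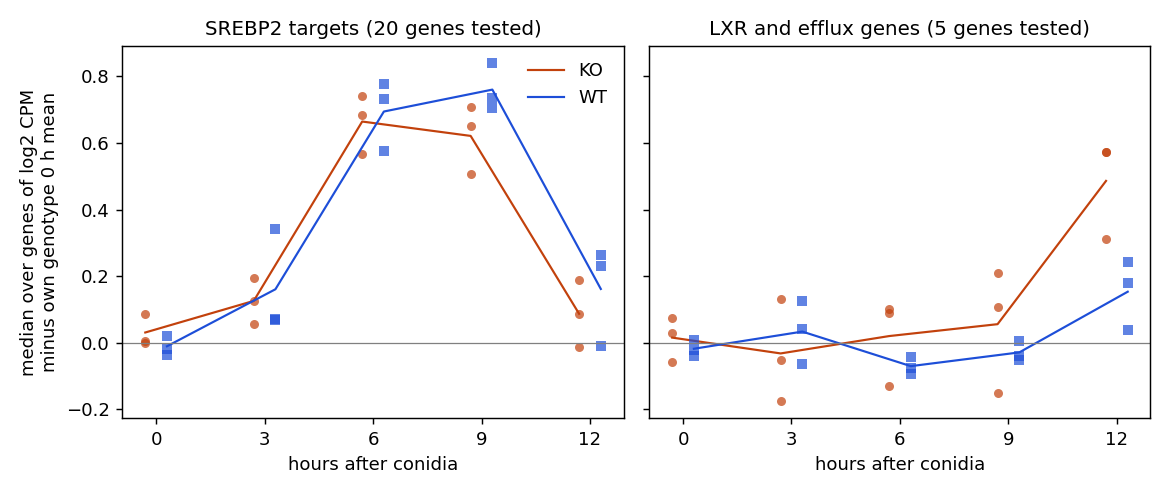
Median over the tested genes of a list of log2 CPM minus the 0 h mean of the same genotype, 1 point per library, against hours after conidia, with KO as circles and WT as squares and lines through the means of 3 libraries. The median of the 20 SREBP2 targets rises to about 0.5 to 0.8 at 6 and 9 h in both genotypes and returns at 12 h. That of the 5 LXR and efflux genes stays near 0 until 9 h, while Abca1 and Mylip moved in opposite directions.

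Between 9 and 12 h the pattern turned. In KO cells 8 genes fell (1.84% of all genes tested) and 1, Abca1, rose (2.65%), and in WT cells 10 fell (5.37%) and 1, again Abca1, rose (5.16%). Of the SREBP2 targets 6 fell in KO and 8 in WT cells, with median log2 changes of -0.48 and -0.63. Sqle, squalene epoxidase, changed by -1.46 ± 0.18, adjusted p = 3.82e-06 in KO cells and by -0.92 ± 0.17, adjusted p = 5.03e-04 in WT cells. The count in KO cells was the less stable: with 1 library left out it was 4 or 5, whichever library of the 6 that was, DESeq2 called 5, and the fit to these groups alone called 1. In WT cells it was 5 to 10, with the low values without WT 12 h replicate 2 or 3.

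Cell type markers moved over the same hours. The 8 neutrophil markers summed to 205 to 252 CPM at 0 h, 321 to 388 at 3 h, 517 to 527 at 6 h, 261 to 287 at 9 h and 179 to 200.04 at 12 h in KO cells. In WT cells they summed to 358 to 397, 500.4 to 558, 618 to 958, 457 to 592 and 389 to 454 CPM at the same times. Of the 5 neutrophil markers tested, 4 rose at 6 h in each genotype, as did 1 of 2 eosinophil markers. The 8 macrophage markers summed to 973 to 1021 CPM at 6 h against 1109 to 1205 at 0 h in KO cells, and to 1197 to 1258 at 6 h against 1395 to 1462 at 0 h in WT cells. Of these 8 markers 4, 5 and 4 fell at 6, 9 and 12 h in KO cells, where 1, 1 and 2 rose, and 3, 4 and 5 fell in WT cells, where none rose. The 8 dendritic cell markers summed to 3032 to 3131 CPM at 12 h against 3138 to 3445 at 0 h in KO cells, with 1 of 7 tested lower, and to 2394 to 2770 against 3067 to 3232 in WT cells, with 4 of 7 lower. Cell cycle genes summed to 234 to 251 CPM at 12 h against 176 to 204 at 0 h in KO cells and 258 to 282 against 183 to 190.5 in WT cells. The part of these shifts in the cholesterol gene results was not tested.

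Promoter windows were searched for motifs of SREBP2, its partner NF-Y and LXR. RefSeq promoter windows (GRCm38.p6, 250 bases before to 50 after the start) were at hand for 27 of the 33 genes, and the missing ones are Abcg1, Fdft1, Fdps, Npc1, Sqle and Stard4. The CCAAT box (CCAAT, or ATTGG on the other strand), which NF-Y binds, was in the window of 16 of 17 SREBP2 targets, against 42.4% of 8529 tested genes and 37.4% of all 32851 windows. Of the LXR and efflux genes 1 of 4, Mylip, held it. The sterol regulatory element searched as TCACNCCAC on both strands was in the window of Hmgcs1 alone among the SREBP2 targets and in 1.24% of all windows. The longer SRE-1 form of this element and the DR4 repeat of LXR were each searched as a fixed pattern on both strands. Neither pattern was in the window of any SREBP2 target or LXR and efflux gene. These patterns were in 0.0913% and 0.222% of all windows. A match is a string of letters and not a shown binding site. A miss does not show that an element is absent, since forms that differ from the pattern were not searched. The Abca1 stretch below holds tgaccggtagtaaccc, which on the other strand differs from the DR4 pattern searched only in its first base. Whether LXR binds there was not tested. The stretches below lie upstream of the start and are read in the direction of the gene. They show Hmgcs1 because it holds both motifs, Mvd and Sc5d for their CCAAT boxes close to the start, Mylip as the LXR gene with CCAAT boxes, and Abca1 as the efflux gene with neither. Capitals mark the matches: in Hmgcs1 the run at bases -137 to -129 is the sterol regulatory element, and all other runs are CCAAT boxes.
Hmgcs1 (chr13:119690101-119690350, plus strand): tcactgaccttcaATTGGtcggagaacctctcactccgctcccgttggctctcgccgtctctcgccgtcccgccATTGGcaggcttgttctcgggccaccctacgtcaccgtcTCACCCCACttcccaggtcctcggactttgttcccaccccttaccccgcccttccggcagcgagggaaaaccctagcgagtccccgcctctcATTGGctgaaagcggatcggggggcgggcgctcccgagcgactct
Mvd (chr8:122443423-122443672, minus strand): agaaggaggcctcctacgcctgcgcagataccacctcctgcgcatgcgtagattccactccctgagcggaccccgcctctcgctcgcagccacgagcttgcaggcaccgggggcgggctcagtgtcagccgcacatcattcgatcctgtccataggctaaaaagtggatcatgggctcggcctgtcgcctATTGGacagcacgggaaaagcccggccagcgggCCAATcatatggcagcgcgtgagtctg
Sc5d (chr9:42264301-42264550, minus strand): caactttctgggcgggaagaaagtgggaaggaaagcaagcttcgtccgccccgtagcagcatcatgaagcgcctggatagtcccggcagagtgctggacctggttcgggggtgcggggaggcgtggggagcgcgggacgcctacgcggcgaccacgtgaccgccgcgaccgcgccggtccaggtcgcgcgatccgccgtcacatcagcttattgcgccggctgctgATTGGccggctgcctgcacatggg
Mylip (chr13:45389492-45389741, plus strand): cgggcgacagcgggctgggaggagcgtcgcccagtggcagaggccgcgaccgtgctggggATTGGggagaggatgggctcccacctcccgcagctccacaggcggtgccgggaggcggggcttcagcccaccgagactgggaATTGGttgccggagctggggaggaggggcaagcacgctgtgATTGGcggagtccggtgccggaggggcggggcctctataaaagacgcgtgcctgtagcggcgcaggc
Abca1 (chr4:53159896-53160145, minus strand): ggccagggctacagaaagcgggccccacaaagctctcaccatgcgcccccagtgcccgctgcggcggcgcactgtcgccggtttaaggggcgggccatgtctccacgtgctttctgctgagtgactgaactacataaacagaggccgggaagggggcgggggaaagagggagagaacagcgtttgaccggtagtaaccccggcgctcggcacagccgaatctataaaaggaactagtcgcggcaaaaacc

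In the control of SREBP, Insig1 moved most. In KO cells Insig1 stood at 20.5, 14.99 and 20.8 CPM at 0 h, 24.1, 29.6 and 27.9 CPM at 3 h, 38.1, 36.5 and 39.3 CPM at 6 h, 44.5, 30.0 and 43.4 CPM at 9 h and 37.9, 34.4 and 48.4 CPM at 12 h. The WT values of Insig1 were 14.1, 15.5 and 13.3 CPM at 0 h, 21.0, 19.999 and 17.8 CPM at 3 h, 37.4, 34.6 and 32.5 CPM at 6 h, 36.2, 32.1 and 28.6 CPM at 9 h and 39.3, 29.4 and 33.2 CPM at 12 h. Every library of 6, 9 and 12 h lay above every 0 h library of its genotype, and the 12 h libraries stayed as high as those of 9 h. The log2 change was 1.03 ± 0.17, adjusted p = 1.95e-04 at 6 h, 1.08 ± 0.16, adjusted p = 3.49e-05 at 9 h and 1.10 ± 0.17, adjusted p = 1.88e-05 at 12 h in KO cells. It was 1.28 ± 0.17, adjusted p = 1.22e-05, 1.17 ± 0.17, adjusted p = 1.79e-05 and 1.25 ± 0.17, adjusted p = 3.59e-06 in WT cells, a level 2.38-fold that of 0 h at the last time. These 6 calls held with each library of their groups left out. From 9 to 12 h the change was 0.02 ± 0.15 in KO and 0.08 ± 0.15 in WT cells.

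Srebf2, which encodes SREBP2 and is itself one of its targets, rose at 6 h in KO cells and fell between 9 and 12 h in both genotypes. Its KO levels were 72.1, 74.6 and 76.0 CPM at 0 h, 89.3, 80.4 and 86.5 CPM at 3 h, 104, 87.1 and 116 CPM at 6 h, 88.3, 94.8 and 90.5 CPM at 9 h and 70.2, 74.6 and 55.8 CPM at 12 h. Its WT levels were 84.7, 81.0 and 85.1 CPM at 0 h, 96.6, 89.2 and 80.1 CPM at 3 h, 102, 104 and 86.2 CPM at 6 h, 108, 88.6 and 114 CPM at 9 h and 73.3, 74.0 and 70.0 CPM at 12 h. At 12 h every library lay below every 9 h library in both genotypes. The change passed at 6 h in KO cells alone (0.47 ± 0.11, adjusted p = 0.00679). It ended there without KO 6 h replicate 3 (adjusted p = 0.0847), and WT cells had 0.22 ± 0.11, adjusted p = 0.277. A test of the difference between genotypes did not pass there. From 9 to 12 h Srebf2 fell in both genotypes, with changes of -0.44 ± 0.11, adjusted p = 0.0136 in KO and -0.51 ± 0.10, adjusted p = 0.00121 in WT cells. The KO call ended without KO 9 h replicate 2 or KO 12 h replicate 3 (0.0532 and 0.108).

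Srebf1 encodes SREBP1, the partner that drives fatty acid synthesis and is switched on by LXR. In KO cells Srebf1 had 33.5, 28.1 and 28.3 CPM at 0 h, 35.1, 30.7 and 32.4 CPM at 3 h, 36.4, 27.5 and 32.6 CPM at 6 h, 28.1, 30.4 and 37.6 CPM at 9 h and 21.4, 25.2 and 20.1 CPM at 12 h. In WT cells the values were 34.96, 47.4 and 35.7 CPM at 0 h, 37.2, 37.3 and 43.0 CPM at 3 h, 39.0, 35.01 and 35.5 CPM at 6 h, 33.5, 43.2 and 40.6 CPM at 9 h and 30.4, 29.1 and 28.3 CPM at 12 h. The 12 h libraries were the lowest of each genotype, and did not overlap with those of 9 h. From 9 to 12 h the log2 change was -0.51 ± 0.14, adjusted p = 0.0394 in KO cells and -0.42 ± 0.13, adjusted p = 0.0421 in WT cells, and against 0 h it was -0.41 ± 0.15, adjusted p = 0.06 and -0.42 ± 0.13, adjusted p = 0.0289. These calls were weak: with 1 library left out the WT call at 12 h ended for WT 0 h replicate 2, WT 12 h replicate 2 or WT 12 h replicate 3 (adjusted p 0.0799 to 0.24). The KO call from 9 h ended without KO 9 h replicate 2 or 3 or KO 12 h replicate 1 or 3, the WT call from 9 h ended without any library but WT 9 h replicate 1 (0.0538 to 0.203). DESeq2 called none of the 3 (0.0921 to 0.104). Both calls from 9 h ended with the replicate number as a block (0.0533 in KO and 0.0549 in WT), and that of WT with RLE (0.0521) and protein-coding scaling (0.0543). Scap and Insig2 passed at no time against 0 h, with group means of 17.3 to 26.1 CPM for Scap, the escort of SREBP, and 8.63 to 12.0 CPM for Insig2, a relative of Insig1.

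The mevalonate arm builds isoprenoid units from acetyl-CoA. Hmgcs1, which makes HMG-CoA, had 41.0, 48.3 and 44.6 CPM at 0 h, 31.4, 43.7 and 43.5 CPM at 3 h, 82.0, 70.6 and 56.4 CPM at 6 h, 64.0, 61.1 and 70.2 CPM at 9 h and 40.5, 41.8 and 54.3 CPM at 12 h in KO cells. In WT cells Hmgcs1 had 29.0, 38.6 and 39.8 CPM at 0 h, 33.9, 31.9 and 31.6 CPM at 3 h, 50.9, 65.2 and 58.3 CPM at 6 h, 61.3, 57.8 and 55.6 CPM at 9 h and 42.6, 40.9 and 31.5 CPM at 12 h. All 6 h and 9 h libraries were above all 0 h libraries of their genotype, and the 12 h libraries overlapped with those of 0 h. The change was 0.63 ± 0.15, adjusted p = 0.00889 at 6 h and 0.54 ± 0.15, adjusted p = 0.016 at 9 h in KO cells, and 0.71 ± 0.15, adjusted p = 0.00377 and 0.71 ± 0.15, adjusted p = 0.00178 in WT cells. The WT calls held in every library left out. The KO calls ended without KO 6 h replicate 1 (adjusted p = 0.0803) at 6 h and without KO 0 h replicate 1 or KO 9 h replicate 3 (0.0665 and 0.0603) at 9 h. Hmgcs1 then changed by -0.52 ± 0.15, adjusted p = 0.0358 in KO and -0.59 ± 0.14, adjusted p = 0.0072 in WT cells. The KO step ended without any of 4 libraries (KO 9 h replicate 1 or 3, KO 12 h replicate 1 or 2, 0.0681 to 0.142) and the WT step without WT 12 h replicate 3 (0.0545).

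Fdps, which joins isoprenoid units into farnesyl diphosphate, had the largest change of the 33 genes that passed. Its KO levels were 8.01, 10.1 and 9.72 CPM at 0 h, 6.52, 10.2 and 12.7 CPM at 3 h, 26.5, 22.7 and 19.2 CPM at 6 h, 23.6, 9.77 and 15.7 CPM at 9 h and 12.2, 16.6 and 9.29 CPM at 12 h. Its WT levels were 5.30, 13.0 and 2.904 CPM at 0 h, 15.8, 5.41 and 14.3 CPM at 3 h, 22.5, 9.19 and 24.1 CPM at 6 h, 25.8, 28.6 and 31.3 CPM at 9 h and 13.6, 6.19 and 9.42 CPM at 12 h. The WT 9 h libraries lay above all other libraries except KO 6 h replicate 1, which exceeded the lowest of them, while WT 0 h replicate 2 stood well above its partners. Against 0 h the WT change was 2.02 ± 0.41, adjusted p = 0.00154 at 9 h, or 4.06-fold, and it held in every library left out. In KO cells the changes of 1.27 ± 0.42, adjusted p = 0.0773 at 6 h and 0.81 ± 0.42, adjusted p = 0.269 at 9 h did not pass. Between 9 and 12 h Fdps fell in WT cells (-1.54 ± 0.38, adjusted p = 0.00894), a call that ended without WT 12 h replicate 2 (0.0665). Another annotated gene, Gm43738, overlaps Fdps on the same strand, so its reads may be shared.

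Idi1, the isomerase that supplies the building block for Fdps, had low counts and uneven groups. Its KO levels were 9.01, 3.75 and 14.1 CPM at 0 h, 4.08, 16.2 and 8.20 CPM at 3 h, 20.8, 26.0 and 18.8 CPM at 6 h, 18.1, 18.5 and 19.0 CPM at 9 h and 14.8, 18.2 and 21.0 CPM at 12 h. Its WT levels were 4.94, 12.6 and 3.32 CPM at 0 h, 15.8, 14.1 and 17.3 CPM at 3 h, 20.4, 17.5 and 19.0 CPM at 6 h, 21.5, 25.0 and 22.2 CPM at 9 h and 19.1, 18.9 and 7.37 CPM at 12 h. At 0 h KO replicate 3 and WT replicate 2 were the highest of their groups, the 6 h and 9 h libraries lay above all of 0 h, and the KO 12 h libraries did too. The WT change passed both after 6 h (1.46 ± 0.42, adjusted p = 0.0376) and later at 9 h (1.73 ± 0.41, adjusted p = 0.00514). The 9 h call held in every library left out, and the 6 h call ended without any of 5 (WT 0 h replicate 1 or 3, WT 6 h replicate 1, 2 or 3, adjusted p 0.0753 to 0.183). In KO cells 1.31 ± 0.41, adjusted p = 0.0612 at 6 h missed the threshold, and passed without KO 0 h replicate 3 (1.82, adjusted p = 0.0239) and by DESeq2 (0.0396).

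Mvd, the decarboxylase before Idi1, had 24.5, 21.0 and 19.9 CPM at 0 h, 24.1, 25.8 and 25.0 CPM at 3 h, 26.5, 29.8 and 26.7 CPM at 6 h, 35.6, 38.0 and 34.3 CPM at 9 h and 22.7, 24.6 and 24.9 CPM at 12 h in KO cells. In WT cells Mvd had 28.6, 19.3 and 21.6 CPM at 0 h, 29.5, 19.999 and 29.7 CPM at 3 h, 29.7, 39.4 and 27.9 CPM at 6 h, 29.5, 31.8 and 34.6 CPM at 9 h and 29.6, 20.7 and 20.1 CPM at 12 h. The KO 9 h libraries were above all other KO libraries. The KO change at 9 h was 0.73 ± 0.17, adjusted p = 0.00368. It held in every library left out. The later step to 12 h was -0.58 ± 0.16, adjusted p = 0.037 but ended with any of 6 libraries left out (0.0577 to 0.119) and by DESeq2 (0.0596). In WT cells the 9 h change was 0.46 ± 0.16, adjusted p = 0.0734. Acat2, Mvk, Pmvk and Ggps1, the last of which leads to geranylgeranyl groups and not to sterol, passed in no comparison. Their group means ran from 3.92 to 6.78, 1.505 to 5.90, 6.34 to 10.8 and 14.9 to 21.4 CPM, and Acat2 has a near-identical neighbour, Acat3, whose reads may be shared.

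**Figure D3:**
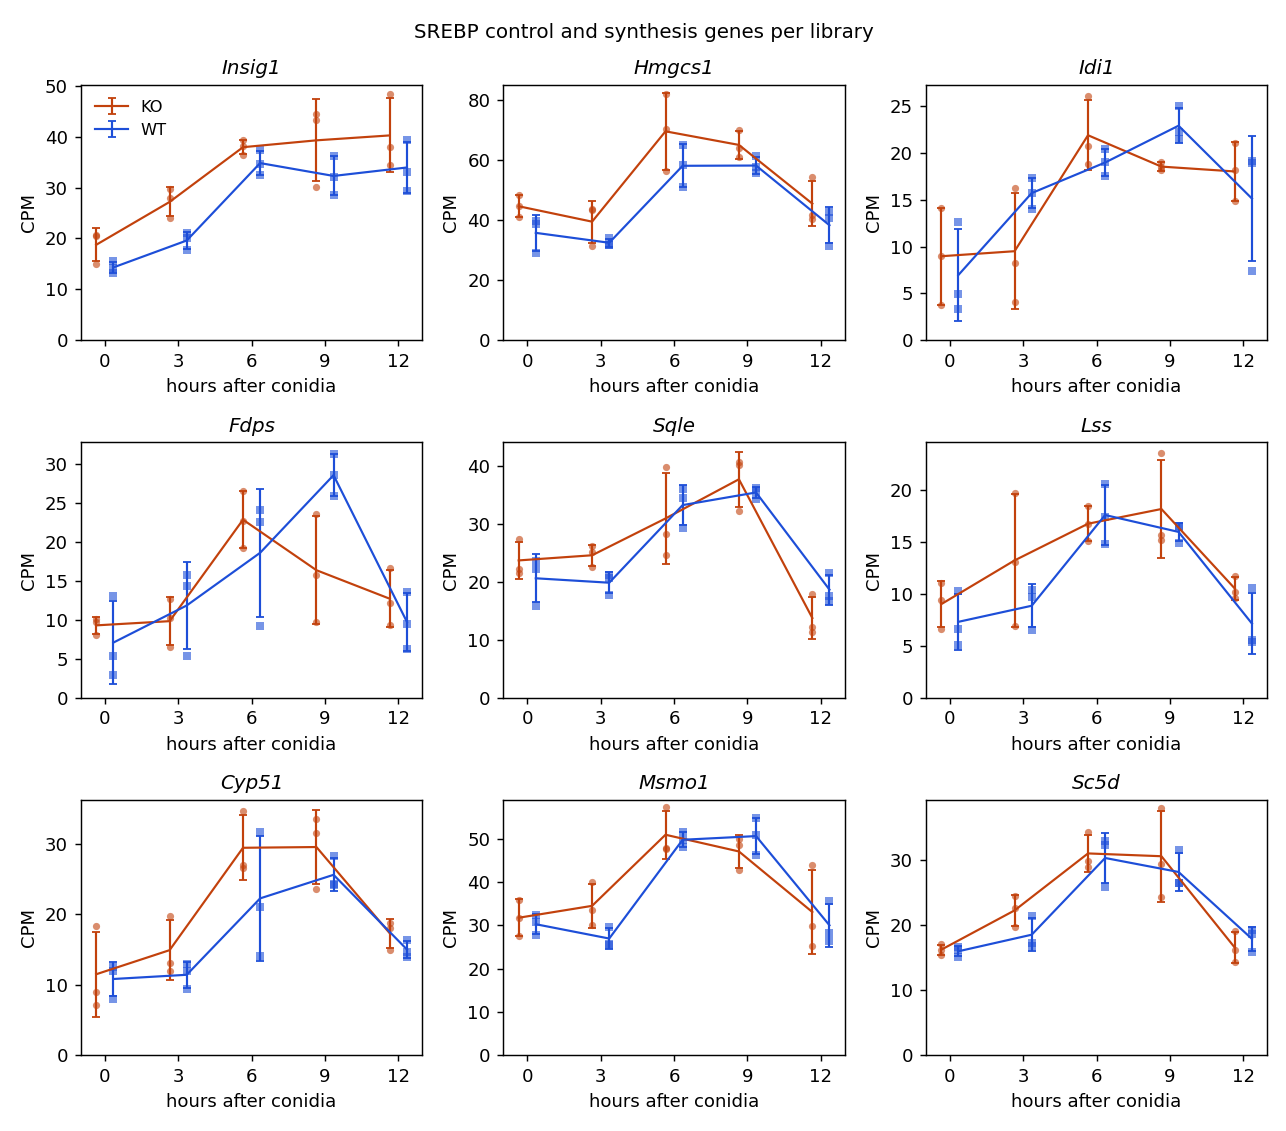
CPM in each library (points), with the group mean and SD (lines and bars, n = 3), against hours after conidia for Insig1 and 8 enzymes of cholesterol synthesis, KO as circles and WT as squares. The highest group mean of each enzyme is at 6 or 9 h in both genotypes, and Insig1 stays between 29.4 and 48.4 CPM at 12 h.

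In the sterol arm, which turns farnesyl units into cholesterol, Cyp51 rose in both genotypes. Cyp51 removes a methyl group from lanosterol. In KO cells its levels were 9.01, 18.4 and 7.07 CPM at 0 h, 13.0, 19.8 and 11.9 CPM at 3 h, 26.5, 27.0 and 34.7 CPM at 6 h, 23.6, 31.5 and 33.5 CPM at 9 h and 18.7, 14.99 and 18.1 CPM at 12 h. In WT cells its levels were 12.0, 7.97 and 12.4 CPM at 0 h, 12.9, 11.9 and 9.39 CPM at 3 h, 14.01, 21.0 and 31.7 CPM at 6 h, 24.1, 24.3 and 28.3 CPM at 9 h and 14.7, 13.9 and 16.4 CPM at 12 h. The 6 h and 9 h libraries were higher than all 0 h libraries of their genotype, with WT 6 h replicate 1 the closest to them. The KO changes of 1.33 ± 0.28, adjusted p = 0.00318 at 6 h and 1.32 ± 0.27, adjusted p = 0.0015 at 9 h held in every library left out. So did the WT change at 9 h (1.23 ± 0.27, adjusted p = 0.00311). The WT change at 6 h (1.03 ± 0.29, adjusted p = 0.0274) ended without any of 5 libraries (WT 0 h replicate 1, 2 or 3, WT 6 h replicate 2 or 3, adjusted p 0.0504 to 0.262).

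Lss, which closes squalene epoxide into lanosterol, had 11.01, 9.37 and 6.62 CPM at 0 h, 6.93, 13.1 and 19.7 CPM at 3 h, 16.7, 18.5 and 15.05 CPM at 6 h, 23.6, 15.2 and 15.7 CPM at 9 h and 9.59, 10.2 and 11.7 CPM at 12 h in KO cells. In WT cells Lss had 10.2, 5.03 and 6.64 CPM at 0 h, 9.70, 6.49 and 10.4 CPM at 3 h, 17.4, 20.6 and 14.8 CPM at 6 h, 16.4, 14.9 and 16.5 CPM at 9 h and 10.52, 5.57 and 5.32 CPM at 12 h. The WT libraries of 6 and 9 h were above those of 0 and 12 h without overlap. The change passed at 9 h in KO (1.02 ± 0.30, adjusted p = 0.0269), and in WT cells at 6 h (1.24 ± 0.31, adjusted p = 0.0139) as well as at 9 h (1.10 ± 0.30, adjusted p = 0.0172). Each call ended without replicate 2 or 3 of its 0 h group, and also without KO 9 h replicate 1, WT 6 h replicate 2 or WT 9 h replicate 3 in turn (adjusted p 0.0563 to 0.165). Later Lss fell from 9 to 12 h in WT cells (-1.12 ± 0.30, adjusted p = 0.0131), which ended without WT 12 h replicate 2 or 3 (0.0858 and 0.0684).

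Sc5d, the desaturase near the end of the pathway, rose and fell in both genotypes. Its KO levels were 17.0, 16.1 and 15.5 CPM at 0 h, 24.5, 22.6 and 19.7 CPM at 3 h, 28.9, 29.8 and 34.3 CPM at 6 h, 29.4, 24.2 and 38.0 CPM at 9 h and 16.1, 14.4 and 19.1 CPM at 12 h. Its WT levels were 16.6, 15.1 and 16.2 CPM at 0 h, 21.4, 17.3 and 16.8 CPM at 3 h, 32.3, 32.8 and 25.8 CPM at 6 h, 26.5, 31.5 and 26.5 CPM at 9 h and 15.8, 18.6 and 19.2 CPM at 12 h. The 6 h and 9 h libraries stood apart from those of 0 and 12 h in both genotypes. The rise was 0.94 ± 0.16, adjusted p = 3.77e-04 and 0.91 ± 0.16, adjusted p = 2.12e-04 at 6 and 9 h in KO cells and 0.92 ± 0.16, adjusted p = 3.70e-04 and 0.81 ± 0.16, adjusted p = 7.32e-04 in WT cells. The fall from 9 to 12 h was -0.89 ± 0.16, adjusted p = 5.23e-04 in KO and -0.66 ± 0.15, adjusted p = 0.00427 in WT cells. All 6 calls held in every library left out, and the KO fall missed the threshold only in the fit to its own groups alone (adjusted p = 0.0629).

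Of the other 8 sterol genes, Msmo1, Sqle, Dhcr7 and Ebp passed somewhere. Msmo1, a methyl sterol oxidase, averaged 50.9 ± 5.50 CPM at 6 h against 31.8 ± 4.22 CPM at 0 h in KO cells and 49.8 ± 1.72 against 30.3 ± 2.29 CPM in WT cells (SD, n = 3 each), a log2 change of 0.67 ± 0.15, adjusted p = 0.00651 and 0.72 ± 0.15, adjusted p = 0.00333. The KO call ended without KO 6 h replicate 2 (0.0562). At 9 h the changes of Msmo1 were 0.56 ± 0.15, adjusted p = 0.0159 in KO cells, which ended without KO 0 h replicate 1 or KO 9 h replicate 1 or 3 (0.0533 to 0.0832), and 0.74 ± 0.15, adjusted p = 0.00111 in WT cells. Msmo1 then fell by 12 h, with -0.52 ± 0.15, adjusted p = 0.0445 in KO cells, whose libraries overlapped, and -0.77 ± 0.15, adjusted p = 6.49e-04 in WT cells. The KO step ended without KO 9 h replicate 1 or 3 or KO 12 h replicate 1 or 2 (0.123 to 0.237) and by DESeq2 (0.0541). Sqle, which oxidizes squalene, averaged 37.7 ± 4.74 CPM at 9 h against 23.7 ± 3.23 CPM at 0 h in KO cells (0.67 ± 0.17, adjusted p = 0.0105, ended without KO 0 h replicate 2 at 0.0527) and 35.4 ± 1.00 against 20.6 ± 4.13 CPM in WT cells (0.79 ± 0.17, adjusted p = 0.00265). The WT change of Sqle at 6 h (0.70 ± 0.18, adjusted p = 0.016) ended without WT 0 h replicate 1 or WT 6 h replicate 1 or 3 (0.0565 to 0.128). At 12 h Sqle had 17.9, 12.1 and 11.2 CPM in KO cells against 21.5, 22.1 and 27.4 CPM at 0 h, all below the 0 h values (-0.79 ± 0.20, adjusted p = 0.00572). Sqle had 21.6, 16.7 and 17.6 CPM in WT cells at 12 h against 15.9, 22.2 and 23.6 CPM, which overlapped (-0.13 ± 0.18, adjusted p = 0.698). Ebp, a sterol isomerase, passed as higher at no time. At 12 h it was at 17.0, 15.9 and 18.1 CPM in KO cells against 26.5, 28.9 and 25.2 CPM at 0 h (-0.67 ± 0.15, adjusted p = 0.00196). It was at 19.1, 21.7 and 20.5 CPM in WT cells against 23.3, 22.2 and 22.4 CPM (-0.15 ± 0.14, adjusted p = 0.528). The difference between genotypes in these 12 h changes did not pass for Sqle or Ebp (adjusted p = 0.3 and 0.295). Dhcr7, the last reductase, rose in WT cells at 9 h (0.69 ± 0.21, adjusted p = 0.0296), a call that ended without any of 4 libraries (WT 0 h replicate 1 or 3, WT 9 h replicate 2 or 3, 0.055 to 0.116). The Dhcr7 call ended by DESeq2 too (0.0912).

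Fdft1, squalene synthase, passed at no time, with 22.5, 29.4 and 31.8 CPM at 6 h against 25.5, 9.74 and 7.51 CPM at 0 h in KO cells, which overlapped through KO 0 h replicate 1. Its change was 1.01 ± 0.31, adjusted p = 0.0506 at 6 h in KO cells, and 1.68 with an adjusted p of 6.27e-04 without KO 0 h replicate 1. The WT change was 0.97 ± 0.30, adjusted p = 0.0583. Nsdhl and Hsd17b7 were at group means of 3.84 to 9.69 and 3.505 to 7.20 CPM and passed in no comparison.

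Among genes of intracellular transport, Stard4, which carries sterol between membranes, followed the enzymes. In KO cells Stard4 had 17.5, 14.6 and 14.6 CPM at 0 h, 14.3, 24.0 and 8.20 CPM at 3 h, 24.8, 26.5 and 28.8 CPM at 6 h, 26.0, 22.4 and 28.9 CPM at 9 h and 15.7, 20.1 and 22.5 CPM at 12 h. In WT cells Stard4 had 13.8, 12.6 and 12.9 CPM at 0 h, 16.6, 10.8 and 13.8 CPM at 3 h, 19.5, 20.6 and 25.4 CPM at 6 h, 21.8, 28.2 and 28.6 CPM at 9 h and 18.5, 13.3 and 13.9 CPM at 12 h. The 6 h and 9 h libraries were above those of 0 h in both genotypes, and the KO 3 h libraries spread from 8.20 to 24.0 CPM. Its change was 0.79 ± 0.24, adjusted p = 0.0483 at 6 h and 0.73 ± 0.23, adjusted p = 0.0432 at 9 h in KO cells, and 0.73 ± 0.24, adjusted p = 0.0771 and 1.00 ± 0.23, adjusted p = 0.00471 in WT cells. The WT 9 h call held in every library left out. The KO call at 6 h ended with any of 6 left out and that at 9 h with any but KO 9 h replicate 2 (0.0565 to 0.168). Both KO calls ended with the replicate number as a block (0.0634 and 0.0565), and that at 6 h by DESeq2 (0.0548). Later Stard4 fell from 9 to 12 h in WT cells (-0.77 ± 0.22, adjusted p = 0.0244), which ended without WT 9 h replicate 2 or 3 or WT 12 h replicate 2 or 3 (0.0858 to 0.118).

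Npc1, the lysosomal membrane protein that hands cholesterol out of the lysosome, rose by a smaller factor. Its KO levels were 192, 169 and 158 CPM at 0 h, 228, 216 and 195 CPM at 3 h, 234, 218 and 239 CPM at 6 h, 229, 253 and 233 CPM at 9 h and 193, 198 and 194 CPM at 12 h. Its WT levels were 208, 194 and 196 CPM at 0 h, 228, 248 and 220.0 CPM at 3 h, 219, 238 and 258 CPM at 6 h, 230.0, 237 and 251 CPM at 9 h and 211, 213 and 224 CPM at 12 h. The 6 h and 9 h libraries lay above the 0 h libraries without overlap. In KO cells the change was 0.42 ± 0.071, adjusted p = 3.07e-04 at 6 h and 0.46 ± 0.07, adjusted p = 3.43e-05 at 9 h, and both held in every library left out. In WT cells it was 0.26 ± 0.07, adjusted p = 0.0246 and 0.26 ± 0.069, adjusted p = 0.0126. Of these the 6 h call ended without WT 0 h replicate 2 or 3 or WT 6 h replicate 2 or 3 (0.0693 to 0.189) and the 9 h call without WT 0 h replicate 2 or WT 9 h replicate 3 (0.0554 and 0.0746). The KO call at 3 h (0.30 ± 0.07, adjusted p = 0.0264) ended without any of 4 libraries (KO 0 h replicate 2 or 3, KO 3 h replicate 1 or 2, 0.111 to 0.225). Later Npc1 fell from 9 to 12 h in KO cells (-0.29 ± 0.07, adjusted p = 0.0129), which ended without KO 9 h replicate 2 (0.0617).

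Npc2, the soluble lysosomal partner of Npc1, had 202, 233 and 239.8 CPM at 0 h, 195, 229.6 and 200.5 CPM at 3 h, 209, 237 and 234 CPM at 6 h, 260.0, 317 and 237 CPM at 9 h and 363, 269 and 243 CPM at 12 h in KO cells. In WT cells Npc2 had 226, 221 and 219 CPM at 0 h, 209.8, 232 and 238 CPM at 3 h, 208, 216 and 240.5 CPM at 6 h, 254, 249 and 249.5 CPM at 9 h and 261, 268 and 247 CPM at 12 h. KO 12 h replicate 1 was the highest of all, and the lowest KO 12 h library was just above the highest KO 0 h library. The KO change at 12 h was 0.37 ± 0.11, adjusted p = 0.0203, and it ended without KO 12 h replicate 1 (0.276) or KO 0 h replicate 1 (0.12). The WT change was 0.22 ± 0.11, adjusted p = 0.171.

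Soat1, which stores cholesterol as esters, had narrow groups. Its KO levels were 541, 559.9 and 562 CPM at 0 h, 604, 617 and 613 CPM at 3 h, 575, 559 and 578 CPM at 6 h, 582, 576 and 604 CPM at 9 h and 562, 533 and 567 CPM at 12 h. Its WT levels were 502, 521 and 520.3 CPM at 0 h, 572, 555 and 577 CPM at 3 h, 578, 567 and 550.3 CPM at 6 h, 572, 562 and 538 CPM at 9 h and 556, 568 and 575 CPM at 12 h. The 3 h and 9 h libraries lay above the 0 h libraries in both genotypes, and in WT cells those of 6 and 12 h did too. The changes that passed were 0.14 ± 0.036, adjusted p = 0.0435 at 3 h in KO cells, and 0.14 ± 0.036, adjusted p = 0.0471 at 3 h in WT cells. Later WT changes of Soat1 were 0.13 ± 0.036, adjusted p = 0.0211 at 6 h, 0.12 ± 0.036, adjusted p = 0.035 at 9 h and 0.14 ± 0.036, adjusted p = 0.00671 at 12 h. The last held in every library left out. The 3 h calls ended with any library left out, the 6 h call with any but WT 6 h replicate 3 and the 9 h call with any but WT 0 h replicate 2 or WT 9 h replicate 3 (0.0542 to 0.234), and by DESeq2 all 4 missed the threshold (0.0685 to 0.123).

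Abca1, the pump that loads cholesterol onto apolipoprotein A-I, carried the clearest change of the efflux genes. In KO cells Abca1 stood at 224, 246 and 231 CPM at 0 h, 205, 225 and 219 CPM at 3 h, 161, 172 and 185 CPM at 6 h, 196, 200.1 and 175 CPM at 9 h and 348, 434 and 362 CPM at 12 h. The WT values of Abca1 were 210.5, 215 and 216 CPM at 0 h, 213, 204 and 201 CPM at 3 h, 172, 146 and 153 CPM at 6 h, 195, 161 and 175 CPM at 9 h and 335, 322 and 313 CPM at 12 h. The 12 h libraries were above every earlier library in both genotypes, and those of 6 and 9 h were below those of 0 h. At 12 h the change was 0.71 ± 0.077, adjusted p = 1.18e-07 in KO (1.63-fold) and 0.60 ± 0.077, adjusted p = 2.05e-06 in WT cells (1.51-fold). Between 9 and 12 h it was 1.01 ± 0.078, adjusted p = 9.04e-10 and 0.87 ± 0.077, adjusted p = 5.38e-09. At 6 h Abca1 was lower, with -0.44 ± 0.08, adjusted p = 6.90e-04 in KO and -0.45 ± 0.08, adjusted p = 5.08e-04 in WT cells. These 6 calls held in every library left out. The 9 h changes were -0.30 ± 0.078, adjusted p = 0.0124 in KO and -0.27 ± 0.078, adjusted p = 0.0229 in WT cells. They ended without KO 0 h replicate 2 or KO 9 h replicate 3 (0.0956 and 0.107) in KO, and without any WT 0 h library or WT 9 h replicate 2 or 3 (0.0577 to 0.164).

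Abcg1, which passes cholesterol to HDL, went the other way at 12 h. In KO cells Abcg1 stood at 145, 173 and 149 CPM at 0 h, 159, 168 and 164 CPM at 3 h, 164, 142 and 161 CPM at 6 h, 146, 147 and 139.6 CPM at 9 h and 133, 137 and 127 CPM at 12 h. The WT values of Abcg1 were 182, 190.1 and 187 CPM at 0 h, 192, 184 and 184 CPM at 3 h, 178, 175 and 181 CPM at 6 h, 175, 175 and 180.1 CPM at 9 h and 148, 166 and 166 CPM at 12 h. The 12 h libraries lay below those of 0 h in both genotypes, and at each time every KO library lay below every WT library. Its change at 12 h was -0.23 ± 0.063, adjusted p = 0.0113 in KO and -0.22 ± 0.061, adjusted p = 0.0106 in WT cells. The KO call ended without KO 0 h replicate 2 or KO 12 h replicate 3 (0.225 and 0.0635), and the WT call without WT 0 h replicate 2 or WT 12 h replicate 1 (0.0532 and 0.0706). By DESeq2 the KO call ended too (0.0796).

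Mylip encodes an LXR-induced ubiquitin ligase that removes lipoprotein receptors, and unlike Abca1 it rose with the synthesis genes. In KO cells Mylip had 11.5, 12.4 and 7.51 CPM at 0 h, 13.0, 18.7 and 20.1 CPM at 3 h, 28.9, 10.4 and 17.1 CPM at 6 h, 20.2, 23.9 and 17.4 CPM at 9 h and 16.6, 15.6 and 17.1 CPM at 12 h. In WT cells Mylip had 13.8, 9.23 and 10.8 CPM at 0 h, 12.1, 15.1 and 14.3 CPM at 3 h, 17.8, 23.6 and 24.5 CPM at 6 h, 24.5, 21.1 and 25.3 CPM at 9 h and 13.3, 11.5 and 12.7 CPM at 12 h. The 9 h libraries were above those of 0 h in both genotypes, while the KO 6 h libraries ran from 10.4 to 28.9 CPM. Its change was 0.96 ± 0.25, adjusted p = 0.0123 at 9 h in KO cells, and 0.95 ± 0.25, adjusted p = 0.0195 at 6 h and 1.05 ± 0.24, adjusted p = 0.00394 at 9 h in WT cells. A fall of -0.92 ± 0.23, adjusted p = 0.00965 followed from 9 to 12 h in WT. The WT 9 h call held in every library left out. The KO 9 h call ended without KO 0 h replicate 3 or KO 9 h replicate 2 (0.0852 and 0.07). The WT 6 h call ended without WT 0 h replicate 2 or 3 or WT 6 h replicate 2 or 3 (0.0731 to 0.109), and the WT fall without WT 12 h replicate 2 (0.0526). Nr1h2 had group means of 33.2 to 42.8 CPM and Nr1h3 of 0.986 to 4.29 CPM, and neither passed in any comparison.

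**Figure D4:**
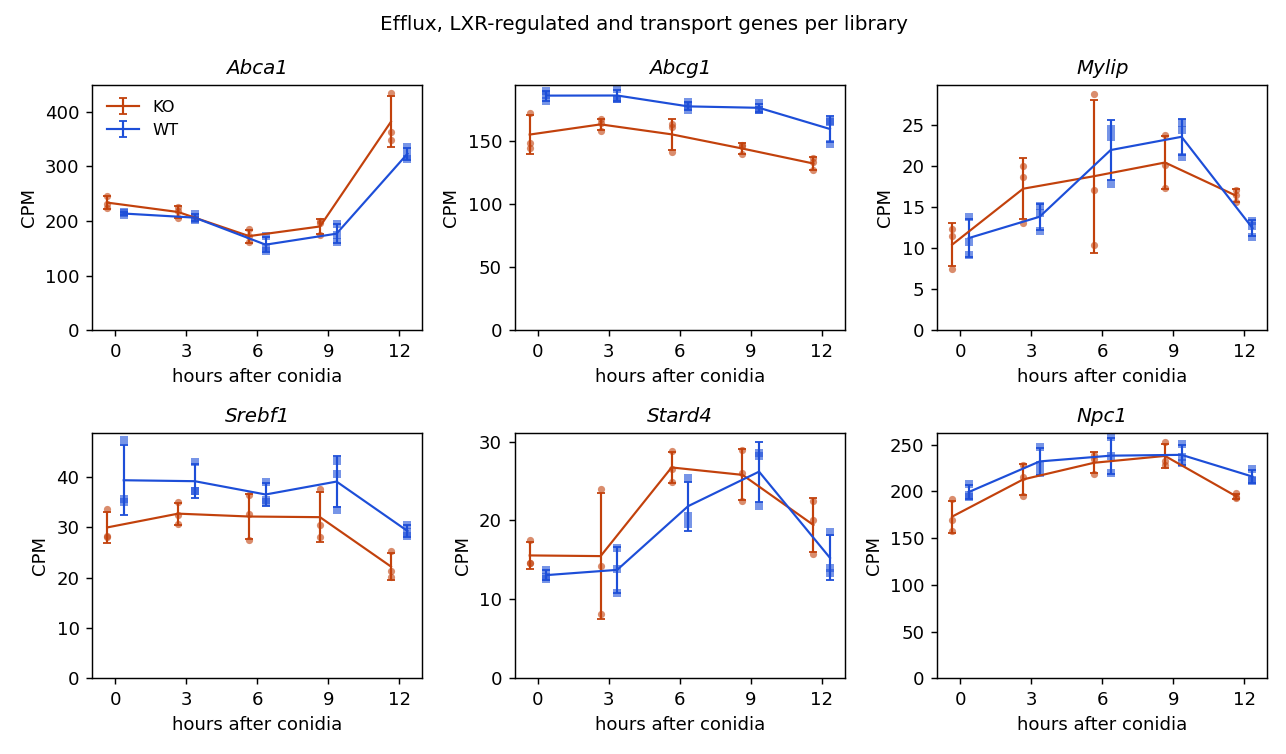
CPM in each library (points), with the group mean and SD (lines and bars, n = 3), against hours after conidia for Abca1, Abcg1, Mylip, Srebf1, Stard4 and Npc1, KO as circles and WT as squares. Abca1 dips at 6 h and climbs to between 348 and 434 CPM in KO and 313 and 335 CPM in WT cells at 12 h, and the KO libraries of Abcg1 sit below the WT libraries at every time.

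KO and WT cells differed little in these genes at any single time. At 0, 9 and 12 h, 1 of 32 genes was lower in KO cells (2.76%, 2.91% and 0.678% of all genes tested were lower), and each time it was Abcg1. At 3 and 6 h no gene passed as lower (3.9% and 3.36%), although 1 did at each time at an unadjusted p under 0.05, and none did by DESeq2. No gene passed as higher at any of the 5 times (2.26%, 3.02%, 2.42%, 2.15% and 1.23%), where 2, 3, 0, 1 and 2 did at an unadjusted p under 0.05 and none by DESeq2. The log2 difference of Abcg1 was -0.26 ± 0.061, adjusted p = 0.00987 at 0 h, -0.19 ± 0.062, adjusted p = 0.0615 at 3 h, -0.19 ± 0.062, adjusted p = 0.0673 at 6 h, -0.29 ± 0.061, adjusted p = 0.00325 at 9 h and -0.27 ± 0.062, adjusted p = 0.0159 at 12 h. With scaling on protein-coding genes alone the 3 h and 6 h values passed too (-0.21 at both, adjusted p = 0.036 and 0.0425). The 9 h call held in every library left out. The 0 h call ended without WT 0 h replicate 2, KO 0 h replicate 1 or KO 0 h replicate 3 (0.0508 to 0.0961). The 12 h call ended without WT 12 h replicate 2 or 3 or KO 12 h replicate 3 (0.0798 to 0.11) and by DESeq2 (0.075).

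Averaged over the 5 times, with 15 libraries a genotype, 4 of 32 genes were higher in KO cells (12.6% of all genes tested were) and 3 were lower (12.2%), shares close to those of all genes. Higher were Insig1 (0.30 ± 0.073, adjusted p = 0.00337), Hmgcs1 (0.25 ± 0.067, adjusted p = 0.00713), Abca1 (0.14 ± 0.035, adjusted p = 0.00491) and Soat1 (0.05 ± 0.016, adjusted p = 0.0131). Lower were Srebf1 (-0.31 ± 0.062, adjusted p = 5.49e-04), Abcg1 (-0.24 ± 0.028, adjusted p = 1.71e-07) and Npc1 (-0.11 ± 0.031, adjusted p = 0.0134). The per-library values stand with each gene above. Insig1 had the higher mean in KO cells at each of the 5 times, but its libraries overlapped with those of WT at all times other than 3 h. Srebf1 had the lower mean in KO cells at each time, with no overlap at 0, 3 and 12 h. These calls held with each of the 30 libraries left out in turn, other than that of Soat1, which ended without WT 6 h replicate 2 or KO 3 h replicate 2 (0.0508 and 0.0584). Without the count filter Soat1 was at 0.00 and no longer passed (adjusted p = 1), nor did Hmgcs1 (0.20, 0.0641) and Abca1 (0.09, 0.291). With the replicate block 5 were higher and 4 lower, as Ggps1 (0.0156) and Scap (0.035) passed too. Macrophage markers were also lower in KO cells, summing to 973 to 1205 CPM in all KO libraries against 1146 to 1462 CPM in all WT libraries, with 7 of 8 lower over all times and 1 of 8 higher. Neutrophil markers were lower too, with 5 of 5 tested. Of the 7 dendritic cell markers tested, 5 were higher in KO cells over all times and none lower. Their part in the genotype differences was not tested.

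**Figure D5:**
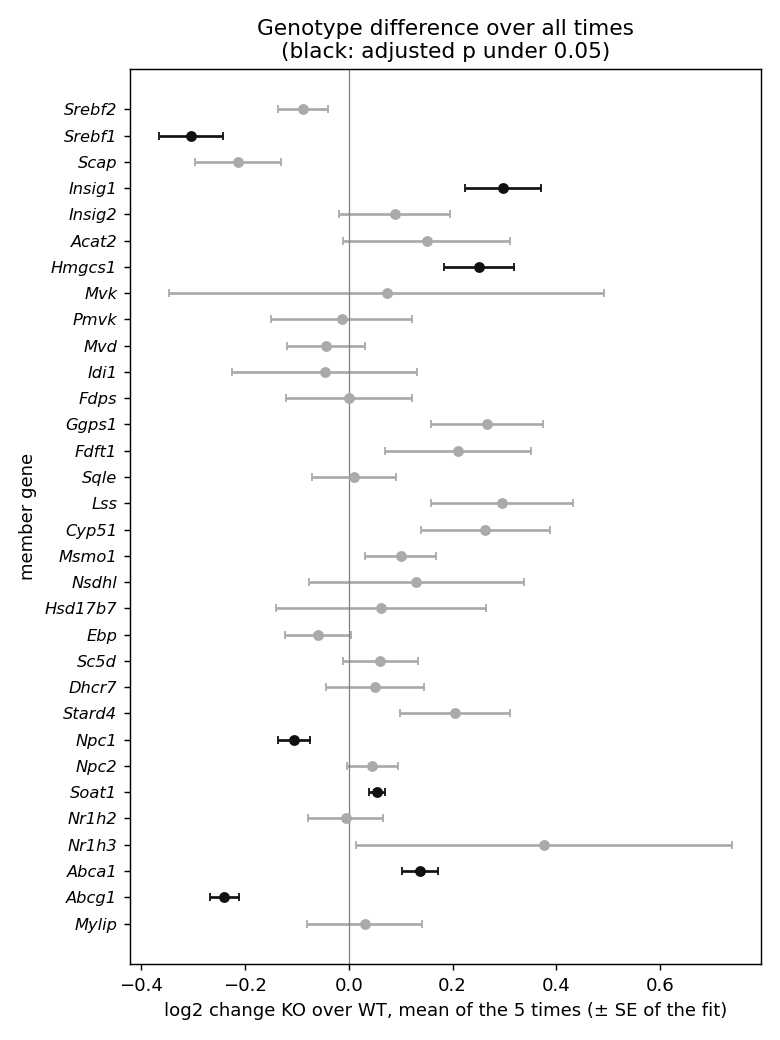
Log2 difference KO over WT averaged over the 5 times for the 32 tested genes, with bars of 1 SE of the fit and black points for an adjusted p under 0.05. Insig1, Hmgcs1, Abca1 and Soat1 lie to the right (higher in KO) and Srebf1, Abcg1 and Npc1 to the left (lower in KO), between -0.31 and 0.30.

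Whether the time course itself differed between genotypes was tested by an interaction. No gene of 32 passed the joint test of the 4 differences with edgeR (0.888% of all genes tested did), where 1, Soat1, had an unadjusted p under 0.05, and none passed by DESeq2. None of the single differences at 3, 6, 9 and 12 h passed either, higher or lower (0%, 0%, 0.0888% and 0.533% of all genes tested were higher and 0%, 0%, 0.0161% and 0.194% lower). There were 1 higher and 3 lower at an unadjusted p under 0.05 at 12 h, none at the other times, and none by DESeq2. At 3 h the difference KO change minus WT change ran over the 20 SREBP2 targets from -1.05 (SE 0.63, Idi1) to 0.43 (SE 0.48, Fdft1), and at 6 h from -0.70 (SE 0.68, Nsdhl) to 0.40 (SE 0.64, Hsd17b7). At 9 h it ran from -1.46 (SE 1.32, Mvk) to 0.27 (SE 0.23, Mvd), and at 12 h from -0.85 (SE 0.43, Pmvk) to 0.24 (SE 0.46, Lss). The median difference over the 20 targets was 0.01, -0.13, -0.15 and -0.09 at 3, 6, 9 and 12 h, and 11, 6, 5 and 8 of them were positive. The lowest adjusted p of a single target was 0.984, 0.99997, 0.79 and 0.295 at these times. The medians and signs were not tested, and those of all genes tested are not given here. Over the 8 genes of the mevalonate arm the median was -0.15, -0.14, -0.46 and -0.10. Of these genes Mvk was close to the limit of detection, and Idi1 and Fdps had uneven 0 h libraries in WT cells. No gene of this arm passed, and whether the arm differed from other genes was not tested.

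Genes next to the pathway were looked at as 4 lists with 27 of 31 genes tested. In KO cells 1, 3, 5 and 0 of 27 rose at 3, 6, 9 and 12 h (1.03%, 3.21%, 5.86% and 8.13% of all genes tested) and 0, 0, 0 and 5 fell (0.186%, 2.7%, 5% and 6.58%). In WT cells 0, 3, 3 and 0 rose (0.88%, 3.29%, 5.57% and 9.64%) and 0, 1, 0 and 9 fell (0.137%, 2.67%, 4.81% and 8.47%). Acss2, which makes acetyl-CoA from acetate, was at 62.0 ± 6.85 CPM at 9 h against 31.6 ± 1.79 CPM at 0 h in KO cells (0.97 ± 0.14, adjusted p = 2.18e-05) and 46.8 ± 1.23 against 22.7 ± 4.87 CPM in WT cells (1.05 ± 0.15, adjusted p = 1.29e-05). Scd1, a stearoyl-CoA desaturase, was at 9.77 ± 3.59 CPM at 6 h against 3.10 ± 0.733 CPM at 0 h in KO cells (1.64 ± 0.34, adjusted p = 0.00244). Lipa, the lysosomal acid lipase that frees cholesterol from lipoproteins, was at 990 ± 68.8 CPM at 9 h against 704 ± 27.2 CPM at 0 h in KO cells (0.49 ± 0.066, adjusted p = 6.13e-06) and 1026 ± 9.33 against 696 ± 37.9 CPM in WT cells (0.56 ± 0.066, adjusted p = 8.28e-07). Scarb1, the HDL receptor, fell at 12 h to 31.1 ± 0.21 CPM against 44.4 ± 3.14 CPM at 0 h in KO cells (-0.52 ± 0.097, adjusted p = 6.04e-04) and to 34.8 ± 3.15 against 48.5 ± 3.18 CPM in WT cells (-0.48 ± 0.092, adjusted p = 3.67e-04). Lbr, a sterol reductase, fell at 12 h in KO cells (-0.91 ± 0.31, adjusted p = 0.0467). Of the SREBP processing and degradation genes, Erlin1 fell at 6 h in WT cells (-0.61 ± 0.18, adjusted p = 0.0381). Between genotypes over all times, 4 of 27 were higher in KO cells (12.6% of all genes tested) and 6 were lower (12.2%). Acss2 was among the higher (0.52 ± 0.068, adjusted p = 1.85e-06), and Lbr, Fasn, Mbtps1, Nceh1, Scarb1 and Lrp1 were the lower.

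For KO cells the authors' deposited tables hold 0, 2, 2 and 2 of the 33 genes at 3, 6, 9 and 12 h, and for WT cells 0, 3, 8 and 2. In the authors' deposited table for WT at 9 h against 0 h, Fdps has a log2 fold change of 2.01 and Idi1 of 1.72, beside 2.02 and 1.73 in the fit above. The authors' deposited tables for KO against WT hold none of the 33 genes at any time, Abcg1 included. Each deposited table lists only 33 to 743 genes, and the rule by which a gene was listed was not established here. Abca1 at 6 h, which passed above in both genotypes, is not listed either. A gene missing from these tables may thus have changed, and their counts are not on the same footing as the calls above.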

How the data were processed

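The members and gene lists were chosen with earlier results of these data known. Per the labels' protocols, RNA was made into strand-specific TruSeq mRNA libraries and sequenced on a NextSeq. Trimmomatic 0.35, HISAT2, StringTie, DESeq2 and the GRCm38 build are named in the submitters' processing notes, with no order. For the annotation release and the strand setting of the counting, the sources used here give nothing. The authors deposited raw counts per gene for all 30 libraries, and 13 comparison tables with log2 fold changes and p-values. The 78 per-sample columns of those tables were not used. Gene names came from GENCODE M21 (54495 identifiers found, 37 not).

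Here the counts were filtered with filterByExpr (minimum count 10), which kept 12393 genes and 98.66% of counts, and scaled by TMM. edgeR 4.0.16 in R 4.3.3 fitted 1 model over the 10 groups with robust quasi-likelihood tests, and p-values were adjusted by Benjamini-Hochberg over all genes tested. The procedure was tested on simulated data. Total counts of 1722384 to 3509429 limit the precision of weakly expressed genes. Alternatives were DESeq2 1.42.0, RLE scaling, scaling on protein-coding genes, no filter, a replicate block, the compared groups alone and each library left out. Members given in full were the 3 per role group with the largest changes that passed and a mean of at least 5 CPM in the higher group, and every member that passed between KO and WT. Of the other pathway genes at most 2 per list, those with the largest changes that passed, were given with their changes over time. Those lower in KO cells over all times were named as well. Some of these are not reported here. No replicates agreed within sampling noise.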

Additional observations from a re-analysis of the deposited data

How the results depend on the processing

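Of 92 member results that passed, none reversed under any alternative run. The call was kept in 91 with RLE scaling, 88 with protein-coding scaling, 86 with the replicate block, 79 with DESeq2, 59 without the count filter, and 61 of 85 in fits to the compared groups alone. With 1 library left out, 578 of 720 refits kept the call. Without the filter the median of all genes moved by 0.32 for WT 12 h against 0 h, by 0.18 for KO against WT over all times and by 0.15 for WT 12 h against 9 h. The causes were not tested.

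Without the count filter, members rising numbered 0 (KO 3 h), 5 (KO 6 h), 0 (WT 3 h), 5 (WT 6 h) and 1 (KO against WT, all times). Members falling without it numbered 0 (KO 9 h), 0 (WT 9 h), 0 (WT 12 h), 4 (KO 12 h against 9 h), 0 (KO against WT at 0 h) and 0 (KO against WT at 12 h). With the compared groups alone, rising members numbered 0 at 3 h in KO and 0 in WT, and falling members 1 (KO 12 h), 0 (WT 12 h), 1 (KO 12 h against 9 h), 0 (KO against WT at 0 h) and 0 (at 12 h). DESeq2 gave 1 rising at KO 3 h and 0 at WT 3 h, and falling 1 (WT 12 h), 5 (KO 12 h against 9 h) and 0 (KO against WT at 12 h). Protein-coding scaling gave 1 rising at KO 3 h, 0 at WT 3 h, and 1 falling in KO against WT at 3 h and 1 at 6 h. With 1 library left out, rising members ran from 0 to 1 (KO 3 h), 0 to 0 (WT 3 h), 5 to 8 (WT 6 h) and 0 to 1 (KO against WT at 6 h). Falling members ran from 0 to 1 (KO 9 h, WT 9 h, and KO against WT at 0 and 12 h), 0 to 2 (WT 12 h), 4 to 5 (KO 12 h against 9 h) and 5 to 10 (WT 12 h against 9 h).

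The replicate numbers share no stated animal or day. Over 4392 genes, correlations of same-numbered libraries ran from -0.241 to 0.323 with a median of 0.0187, and 3 of 45 group pairs had all 3 above 0.1. With the replicate block, 1 member rose at 3 h in KO and 0 in WT.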
